A study of Mus musculus with 8 samples.

Results

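Several secreted genes of Wnt signalling were expressed at other levels in mouse embryonic fibroblasts given retinoic acid (RA) than in untreated ones, in cells labelled TAF4-/-. Wnt9a was higher and Rspo2 lower after 12 h, and after 72 h Wnt11, Rspo3, Wnt5a, Wnt9a, Wnt1 and Fzd4 were higher and the inhibitor Sfrp2 was lower. The calls of Wnt1 and Fzd4, both low in level, did not hold with 10 in place of 1 added before the log or without RA 72 h replicate 1, and Wnt1 reached the level for testing through its RA libraries. The genes described here are those whose symbols mark them as Wnt ligands, Frizzled or Lrp5/6 receptors, R-spondins or secreted Wnt inhibitors, together with Axin2, Lef1, Tcf7 and Nkd1. Membership was decided by symbol and not by any measured value, and 49 of the 22200 genes in the deposited table were members. They comprised 19 Wnt ligands, 12 receptors, 4 R-spondins, 10 secreted inhibitors and 4 target or nuclear factors.

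In the canonical Wnt pathway, a secreted Wnt ligand binds a Frizzled receptor and an Lrp5 or Lrp6 coreceptor, β-catenin escapes destruction, and it acts with TCF/LEF factors on target genes such as Axin2. R-spondins strengthen the response by keeping Frizzled receptors at the cell surface, while Sfrp and Wif1 proteins bind Wnt ligands. Some Dkk proteins, but not the divergent Dkk3, bind the Lrp coreceptors. Wnt5a and Wnt11 are best known for β-catenin-independent signalling that guides cell polarity and movement, and fibroblasts are a common source of Wnt ligands and R-spondins for neighbouring cells.

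Expression was measured by sequencing polyadenylated RNA from immortalised fibroblasts on the C57BL/6 background. There were 3 groups, all with the genotype label TAF4-/-: untreated cells labelled 12 h (3 libraries), cells given RA for 12 h (3 libraries) and cells given RA for 72 h (2 libraries). TAF4 belongs to TFIID, the complex that assembles the basal transcription machinery on promoters. The study's methods give a shorter time for the later treatment, but its results and the sample labels give 72 h, which was used here. The comparisons ask how expression differed after a short and a longer exposure to RA, but no untreated library was labelled 72 h, so RA and time in culture cannot be told apart in the comparison of 72 h with untreated cells. According to the study's methods the TAF4-null cells are a single line, made by Cre deletion of a floxed Taf4 allele in cells whose other Taf4 allele was already lost, and the sources do not say whether the libraries came from separate cultures. The p-values below therefore measure only the spread between these libraries, which may be technical. The titles of the 8 libraries carry cl1, which resembles the study's name for its TAF4-expressing line; the genotype label was followed.

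Values are normalised reads per gene and run from 1, the floor, to 165593. Each library sums to 9442018.6, which hides its sequencing depth, and no counting interval can be given. The RA-responsive genes Cyp26b1, Dhrs3 and Rarb were higher in every RA library than in every untreated one. Of 10 fibroblast markers, 9 were well expressed and Thy1 stayed between 1 and 3.5. The fibroblast list summed to 238528 to 258830 in untreated libraries, 239172 to 250045 at 12 h and 218062 to 223706 at 72 h. Within it, Col3a1 was lower at 72 h and Pdgfra higher at 12 h. The summed epithelial markers lay between 18.9 and 35 in all libraries, the summed endothelial markers between 38.4 and 56.4 in untreated cells, 46.9 and 70.1 at 12 h and 59.3 and 63.8 at 72 h, and the neural markers between 19.6 and 38.6, with the epithelial gene Krt5 near the floor. Of the 4 endothelial markers, Kdr, chosen after its values were seen, was at 3 to 6.13 in untreated cells and 6.63 to 13.9 with RA. The values of Pecam1 and Cdh5 overlapped between all groups. Their means in untreated cells, at 12 h and at 72 h were 17.0, 16.9 and 17.1 for Pecam1 and 10.75, 10.5 and 12.25 for Cdh5. The means of Tek were 12.2, 18.7 and 22.8. The part of these low markers in the results was not tested. Taf4a was listed at 984 to 1449 in all 8 libraries; no TAF4-expressing library was analysed here, and the deleted part of the gene cannot be resolved from a value per gene. Libraries differed within groups along one axis that held 50.1% of the within-group variance and placed libraries of every group on both sides; untreated replicate 3 lay furthest out on it, and its correlation with untreated replicate 2 was the lowest within a group (Spearman's rho 0.981 over genes).

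Of the 49 members, 29 had a mean of at least 10 normalised reads over the 8 libraries and were tested with the other genes above that level, 12673 in all. A gene was called when its limma p-value, adjusted over all genes tested, was below 0.05 with a change of 2-fold or more. The fitted changes are log2 changes of the value plus 1. At 12 h, 1 member was called higher, against 1.11% of all genes tested (141), and 1 was called lower, against 0.308% (39). Without untreated replicate 3 the genes called at 12 h numbered 241 and 81, with the same member in each direction. At 72 h against untreated cells, 6 members were called higher, against 2.15% of all genes, and 1 was called lower, against 1.52%. Between 72 h and 12 h of RA, 2 were higher, against 0.765%, and 1 was lower, against 0.734%. By the adjusted p alone, 4 members were higher and 3 lower at 12 h (background 2.87% and 1.5%), 8 higher and 2 lower at 72 h (6.08% and 5.41%), and 3 higher and 1 lower between the times (2.92% in each direction). The median change of the 29 tested members was 0.050 at 12 h, 0.028 at 72 h and 0.037 between the times, beside -0.016, -0.020 and -0.002 for all genes, so the typical member lay close to the typical gene. The comparisons share libraries, so their counts are not independent of each other. In all 12 called changes the libraries of the groups did not overlap, so each necessarily kept its sign on both sides of the within-group axis. The calls were made from these same values, so neither is further support for them. Over all tested genes, called or not, the groups did not overlap for 20.0% at 12 h, 36.6% at 72 h and 37.3% between the times. Since these are bulk samples, a change in the number of expressing cells and a change in RNA per cell cannot be told apart.

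**Figure D1:**
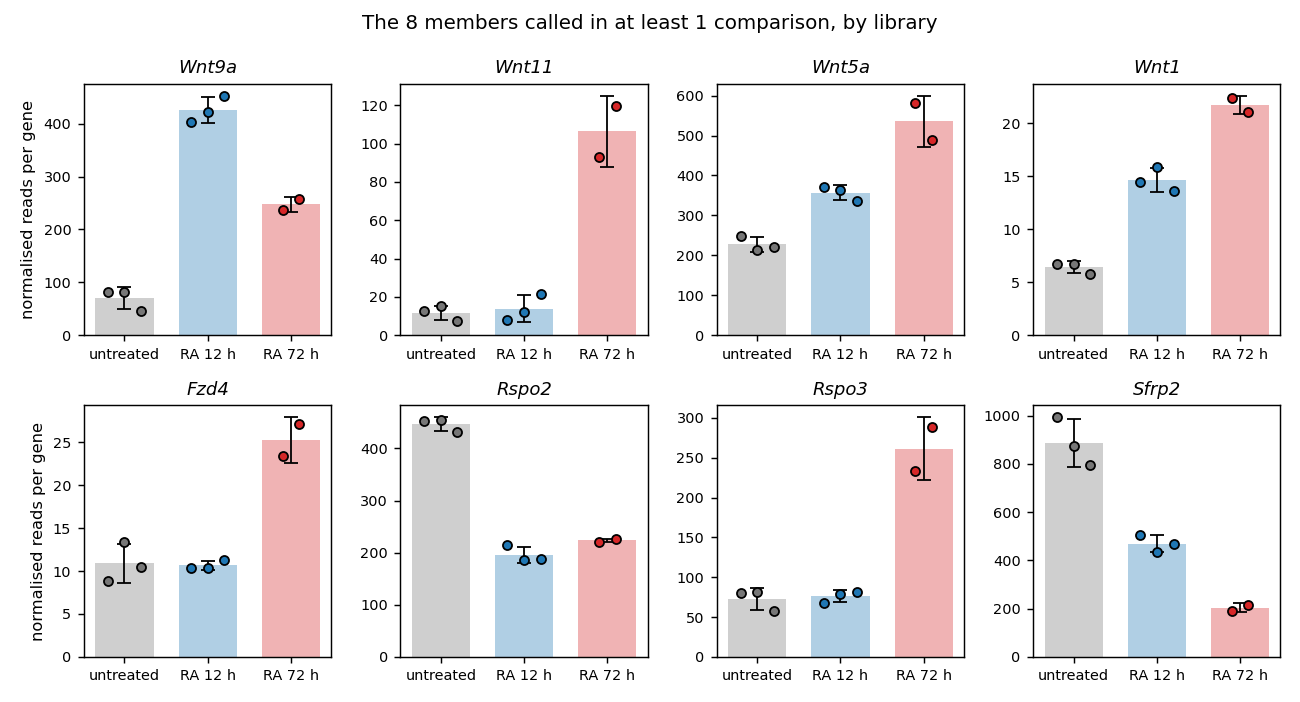
Normalised reads per gene (vertical axis, starting at 0) of the 8 members called in at least 1 comparison; points are libraries, bars are group means and error bars are SD (3 untreated, 3 RA 12 h and 2 RA 72 h libraries). Wnt9a was highest at 12 h, with 403 to 453 reads, Wnt11, Rspo3 and Fzd4 stood apart at 72 h only, and Sfrp2 was lower at each time.

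Wnt9a was the only ligand called at 12 h. It is best known for its part in joint formation and haematopoietic development. It spans chr11:59120430-59147054 on mm9, 16.2 kb from Wnt3a. Wnt9a was at 81.5, 82.0 and 45.3 in the untreated libraries, 403, 422 and 453 at 12 h of RA, and 237 and 258 at 72 h. The untreated library at 45.3 was replicate 3, and even the highest untreated value lay far below the lowest RA value. Group means were 69.6 ± 21.1 (SD, n = 3), 426 ± 25.2 (n = 3) and 247 ± 14.7 (n = 2). The change was 2.65 ± 0.19 (log2, SE) at 12 h, or 6.26-fold (limma adjusted p = 2.21e-06), and 1.86 ± 0.22 at 72 h (adjusted p = 8.4e-05). Both 72 h values were below all 3 of the 12 h values, yet the fall between the times, -0.78 ± 0.22, narrowly missed the threshold (adjusted p = 0.0543). The neighbouring Wnt3a stayed between 6.75 and 16.1 in all 8 libraries and passed no test, with changes of 0.30 ± 0.35 at 12 h and 0.02 ± 0.39 at 72 h.

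Wnt11, a ligand of β-catenin-independent signalling with roles in kidney and heart development, was called at 72 h and not at 12 h. It spans chr7:105983622-106003705 on mm9 and overlaps a pseudogene on the opposite strand, Gm8398, from which its reads may not be separable. Wnt11 was at 12.5, 15.0 and 7.63 in untreated cells, 7.88, 12.1 and 21.6 at 12 h, and 93.3 and 120 at 72 h. The untreated and 12 h values overlapped, and both 72 h values were several times higher than any other. At 12 h the change was 0.17 ± 0.35, with a 95% interval from -0.60 to 0.93 (adjusted p = 0.853). At 72 h it was 3.12 ± 0.40 against untreated cells (8.67-fold, adjusted p = 0.000173) and 2.95 ± 0.40 against 12 h (adjusted p = 0.000659).

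The promoters of Wnt9a, Wnt11 and, for contrast, the falling gene Sfrp2 are shown because these members had the largest changes in each direction. Each runs from 250 bases before to 50 after a transcription start, 5′ to 3′ on the gene's strand, from RefSeq on GRCm38.p6, a later assembly than the one used for the gene positions above. They lie at chr11:59306680-59306979 (plus strand), chr7:98834862-98835161 (plus strand) and chr3:83766071-83766370 (plus strand). Capitals mark GGTCA, a form of the retinoid receptor core, or the TCF/LEF core CTTTGAT, on either strand.
Wnt9a: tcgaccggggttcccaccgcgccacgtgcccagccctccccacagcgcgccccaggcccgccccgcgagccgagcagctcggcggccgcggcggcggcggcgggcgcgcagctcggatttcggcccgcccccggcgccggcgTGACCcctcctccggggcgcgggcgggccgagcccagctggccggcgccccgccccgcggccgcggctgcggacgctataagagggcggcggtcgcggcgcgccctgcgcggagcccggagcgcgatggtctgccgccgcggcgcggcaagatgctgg
Wnt11: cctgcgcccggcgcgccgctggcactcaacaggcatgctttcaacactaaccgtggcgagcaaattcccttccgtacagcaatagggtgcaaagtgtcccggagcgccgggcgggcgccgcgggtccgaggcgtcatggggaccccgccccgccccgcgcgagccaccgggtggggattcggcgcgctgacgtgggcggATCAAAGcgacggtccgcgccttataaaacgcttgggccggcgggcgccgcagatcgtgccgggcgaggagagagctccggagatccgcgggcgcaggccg
Sfrp2: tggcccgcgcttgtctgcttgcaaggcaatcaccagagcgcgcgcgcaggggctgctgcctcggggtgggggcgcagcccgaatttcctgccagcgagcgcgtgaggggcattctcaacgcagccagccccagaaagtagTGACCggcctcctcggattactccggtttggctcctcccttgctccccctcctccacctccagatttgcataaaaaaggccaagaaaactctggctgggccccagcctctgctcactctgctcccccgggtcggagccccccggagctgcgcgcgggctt

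Retinoic acid receptors commonly bind as dimers to direct repeats of such a core. The searched repeats were GGTCANNGGTCA (DR1), GGTCANNNGGTCA (DR2) and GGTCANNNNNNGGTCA (DR5), on both strands. Cores with other letters were not searched, so repeats built on them could not be found. None of the 40 promoters available for 33 of the members held any of them, nor did most promoters in the table: of 32851 of the same length, 0.222%, 0.067% and 0.1% held DR1, DR2 and DR5. A single GGTCA occurred in 18 of the 40 member promoters and in 40.5% of all promoters. The search for the single core was added after the searches for repeats. The printed Wnt9a and Sfrp2 promoters each held 1 core, starting 108 and 110 bases before the start. The Wnt11 promoter shown held the TCF/LEF core, starting 51 bases before the start, as did 2 of the 40 member promoters and 3.73% of all promoters; the other was that of Wnt5b. A second Wnt11 promoter in the table held neither. Such matches describe letters in a short window and are not binding sites.

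Wnt5a, the archetypal ligand of β-catenin-independent signalling, was higher in both RA groups. It spans chr14:29317936-29340633 on mm9 and overlaps the antisense transcript Gm2670, from which its reads may not be separable. Its values were 248, 214 and 220 in untreated cells, 372, 363 and 337 at 12 h, and 581 and 490 at 72 h. The 3 groups did not overlap, with RA 12 h between untreated cells and RA 72 h. The rise was 0.65 ± 0.12 at 12 h (adjusted p = 0.00437, below 2-fold), 1.23 ± 0.13 at 72 h (2.34-fold, adjusted p = 3.69e-05) and 0.58 ± 0.13 between the times (adjusted p = 0.0182, below 2-fold).

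Wnt1 and Wnt10b, ligands of the canonical pathway, lie 11.7 kb apart on chromosome 15 and are transcribed away from each other. Wnt1 (chr15:98620288-98624268 on mm9) was at 6.75, 6.75 and 5.75 in untreated cells, 14.5, 15.9 and 13.6 at 12 h, and 22.4 and 21.1 at 72 h. These are low levels, and the untreated mean of 6.42 lay under the minimum for testing, which Wnt1 passed through its RA libraries. The change was 1.08 ± 0.29 at 12 h, which missed the threshold (adjusted p = 0.0583), and 1.62 ± 0.33 at 72 h (3.07-fold, adjusted p = 0.00542). With 10 in place of 1 added before the log, the 72 h change was 0.95, below 2-fold, and without RA 72 h replicate 1 its adjusted p was 0.0711. Wnt10b was at 273, 260 and 234 in untreated cells, 353, 417 and 402 at 12 h, and 351 and 345 at 72 h. Every RA library was above every untreated one, and both 72 h values were below all 12 h values. The difference between the times, -0.16 ± 0.13, did not pass (limma adjusted p = 0.557). The rise was 0.61 ± 0.11 at 12 h (1.52-fold, adjusted p = 0.00628) and 0.45 ± 0.13 at 72 h (1.36-fold, adjusted p = 0.0383).

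The other 6 tested ligands, Wnt10a, Wnt3, Wnt3a, Wnt5b, Wnt7a and Wnt7b, passed no test, with changes from -0.37 to 0.47 at 12 h and from -0.36 to 0.12 at 72 h. Among them Wnt10a was the most abundant per length, at 70.2 normalised reads per kb of exon over the 8 libraries. The remaining 8 ligands were below the level for testing. Their highest value in any library was 5.63 for Wnt16, 8 for Wnt2, 10.4 for Wnt2b, 11.5 for Wnt4, 5.63 for Wnt6, 3.5 for Wnt8a, 5.75 for Wnt8b and 9.88 for Wnt9b. Wnt6 lies 6.2 kb from Wnt10a, whose lowest value was 133, and Wnt9b lies 24.3 kb from Wnt3, which was itself low, at 5.88 to 14.1.

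**Figure D2:**
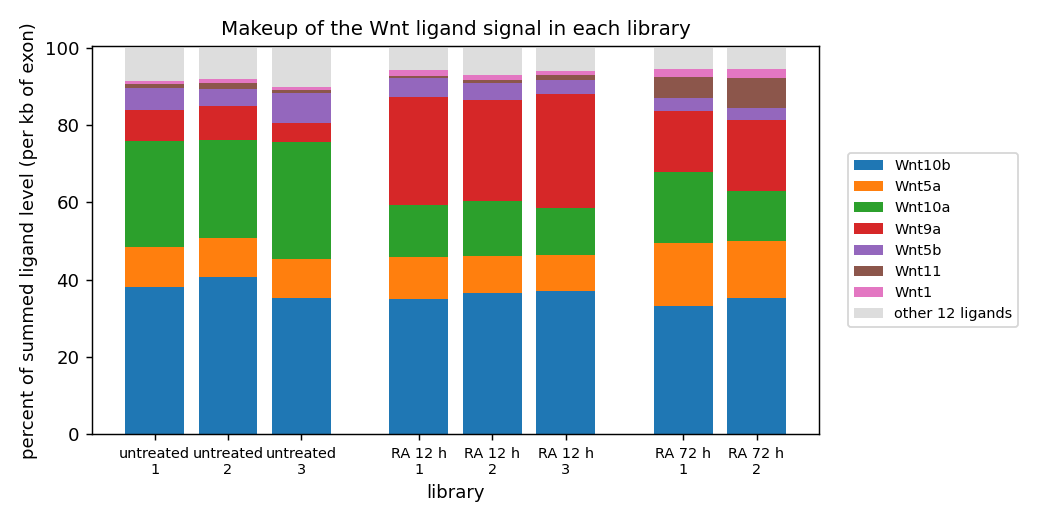
Percent of the summed level of the 19 Wnt ligands, in normalised reads per kb of exon, that each of 7 ligands made up in each of the 8 libraries; the grey part is the other 12 ligands. The Wnt9a part grows from 4.79 to 8.98% in untreated libraries to 25.9 to 29.4% at 12 h and is 15.8 to 18.4% at 72 h, while the Wnt10a part is 25.4 to 30.4% in untreated libraries and 12.2 to 18.2% with RA, where the summed level was higher; the change of Wnt10a itself passed no test (-0.37 at 12 h and -0.26 at 72 h).

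Per length, Wnt10b was the leading ligand in untreated cells, with 35.4 to 40.7% of the summed ligand level, followed by Wnt10a with 25.4 to 30.4% and Wnt5a with 9.91 to 10.4%. At 12 h Wnt9a made up 25.9 to 29.4% per length, second to Wnt10b with 34.9 to 37.2%. At 72 h Wnt11 made up 5.68 to 7.84%, from 0.739 to 1.51% in untreated cells, and Wnt5a 14.9 to 16.4%. The summed ligand level was 274 to 306 normalised reads per kb in untreated cells, 433 to 488 at 12 h and 420 to 452 at 72 h. Not divided by length, the sums were 855 to 959, 1433 to 1570 and 1477 to 1602. On both scales the RA libraries lay above the untreated ones. The order of the ligands differed between the scales. Not divided by length, Wnt10b (26.6 to 30.4%) was followed by Wnt5a (24.9 to 25.9%) and Wnt10a (20.1 to 24.2%) in untreated cells. On that scale Wnt9a led at 12 h with 26.9 to 30.2%, against 24.6 to 26.8% for Wnt10b. Wnt5a led at 72 h with 33.2 to 36.3%, against 21.9 to 23.4% for Wnt10b. The division by length holds for reads from fragmented RNA, which the study's methods describe; the labels describe tags from one site per transcript, for which it would not apply.

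The R-spondins moved in opposite directions. Rspo2 and Rspo3 encode secreted proteins that bind Lgr4, Lgr5 or Lgr6 together with the ubiquitin ligases Znrf3 and Rnf43. Rspo2 (chr15:42852357-43002364 on mm9) was at 454, 455 and 431 in untreated cells, 214, 187 and 188 at 12 h, and 221 and 226 at 72 h. All RA values lay near 200 and far below the untreated ones. The fall was -1.18 ± 0.11 at 12 h (adjusted p = 1.67e-05) and -1.0 ± 0.12 at 72 h (adjusted p = 0.000137), the latter just under 2-fold.

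Rspo3 (chr10:29172915-29255673 on mm9) was at 79.6, 81.6 and 57.3 in untreated cells, 67.4, 78.8 and 81.8 at 12 h, and 234 and 289 at 72 h. Untreated and 12 h values overlapped, as for Wnt11, and the 72 h values stood apart. The change was 0.07 ± 0.17 at 12 h, with a 95% interval from -0.30 to 0.45 (adjusted p = 0.871), 1.84 ± 0.20 at 72 h (3.58-fold, adjusted p = 3.88e-05) and 1.77 ± 0.20 between the times (adjusted p = 0.000164). Per length, Rspo2 was at 134 and Rspo3 at 30.4 normalised reads per kb in untreated cells. The summed R-spondin level per kb was 162 to 178 in untreated cells, 95.3 to 99.5 at 12 h and 169 to 193 at 72 h, so the untreated and 72 h ranges overlapped while the gene that contributed most reads differed.

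Rspo1 and Rspo4 were below the level for testing. Rspo1 was at 12.5, 3.38 and 11 in untreated cells, 8.0, 7.25 and 8.0 at 12 h, and 7.63 and 4.88 at 72 h, values that overlap in all groups. Rspo4 reached at most 6.75.

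**Figure D3:**
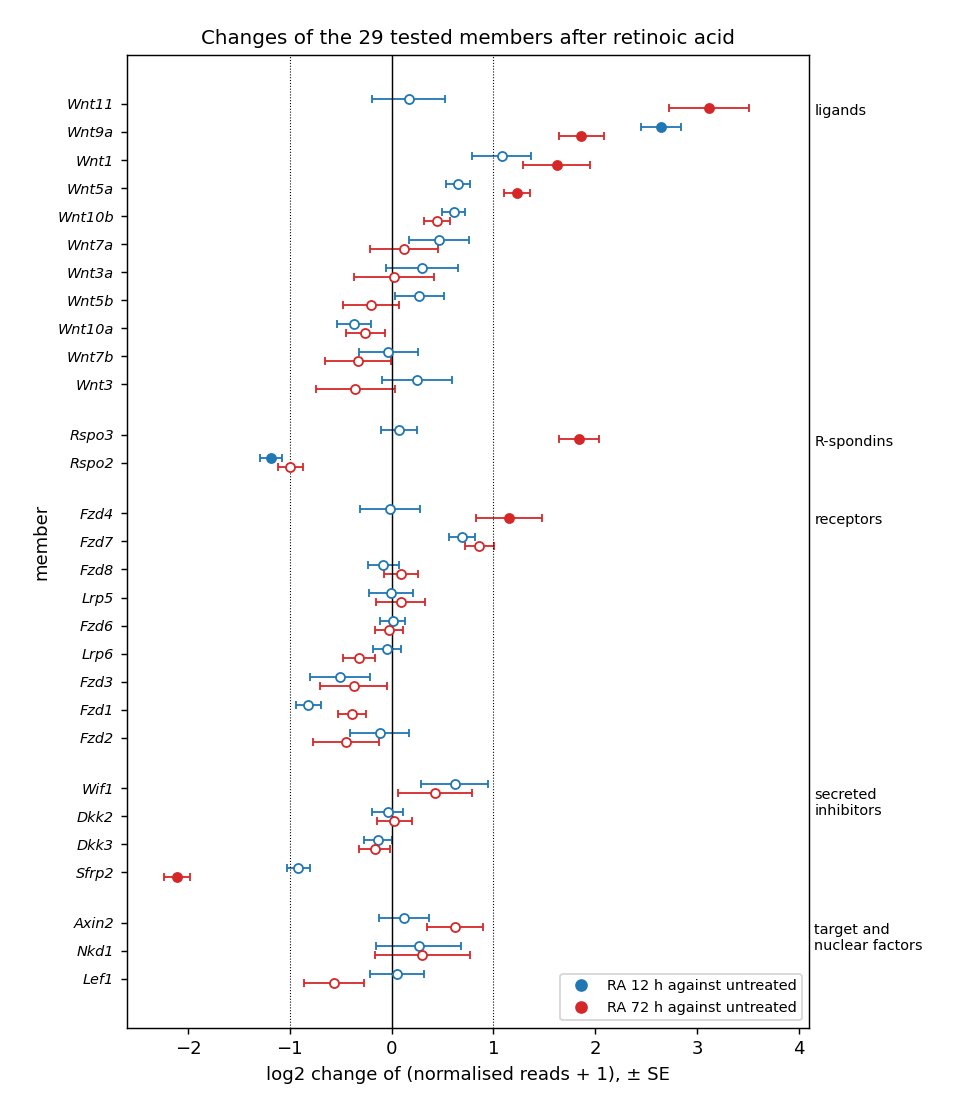
Log2 change of normalised reads plus 1, with SE (horizontal axis), of the 29 tested members at 12 h (blue) and 72 h (red) of RA against untreated cells, grouped by role; filled points are called and dotted lines mark 2-fold. Filled points lie furthest out for Wnt11 (3.12 at 72 h), Wnt9a (2.65 at 12 h) and Sfrp2 (-2.11 at 72 h), while most receptors and Dkk genes lie near 0.

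Of the 9 tested receptors, only Fzd4 was called. Fzd4, a receptor for Wnt ligands and for norrin in blood vessels, spans chr7:96552876-96558620 on mm9. It was at 8.88, 13.4 and 10.5 in untreated cells, 10.4, 10.4 and 11.3 at 12 h, and 23.4 and 27.1 at 72 h. Only the 72 h values stood apart, at a low level. The change was 1.15 ± 0.33 at 72 h (2.22-fold, adjusted p = 0.037) and -0.01 ± 0.29 at 12 h (adjusted p = 0.987). This call was the least stable: with 10 added before the log the change was 0.76, below 2-fold, with no filter its adjusted p was 0.0871, with 2 groups only it was 0.0821, and without single libraries (untreated replicate 1, RA 12 h replicates 1 and 2, RA 72 h replicates 1 and 2) it was 0.114, 0.0569, 0.0611, 0.156 and 0.215.

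Fzd7, a receptor with a part in canonical signalling in stem cells, passed the adjusted p at both times without reaching 2-fold. It was at 480, 335 and 367 in untreated cells, 626, 609 and 655 at 12 h, and 721 and 696 at 72 h. The groups did not overlap, but the difference between the times, 0.17 ± 0.14, did not pass (limma adjusted p = 0.594). The rise was 0.69 ± 0.13 at 12 h (1.62-fold, adjusted p = 0.0056) and 0.86 ± 0.14 at 72 h (1.82-fold, adjusted p = 0.00138).

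Fzd1 was the receptor with the highest level per length, at 300.5 normalised reads per kb in untreated cells. It was at 1404, 1266 and 1275 in untreated cells, 765, 619 and 876 at 12 h, and 964 and 1045 at 72 h. Values were lowest at 12 h and intermediate at 72 h, with no overlap between groups. The difference between the times, 0.43 ± 0.14, did not pass (limma adjusted p = 0.0928). The fall was -0.82 ± 0.12 at 12 h (adjusted p = 0.00121, below 2-fold), whereas the 72 h change of -0.39 ± 0.14 did not pass (adjusted p = 0.0966).

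Fzd6, often named for planar cell polarity in skin and hair, was at 553, 688 and 566 in untreated cells, 566, 603 and 649 at 12 h, and 525 and 658 at 72 h. Its groups overlapped throughout. The change was 0.01 ± 0.12 at 12 h (95% interval -0.25 to 0.28) and -0.03 ± 0.14 at 72 h (-0.32 to 0.27). Fzd6 and 5 more tested receptors (Fzd2, Fzd3, Fzd8, Lrp5 and Lrp6) passed no test, with changes from -0.50 to 0.01 at 12 h and from -0.45 to 0.09 at 72 h. For the coreceptors, the 95% interval at 72 h was -0.43 to 0.61 for Lrp5 and -0.65 to 0.02 for Lrp6. The remaining 3 receptors were below the level for testing, with highest values of 14.1 for Fzd5, 2.5 for Fzd10 and 5.88 for Fzd9.

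Among the secreted inhibitors, Sfrp2 fell at both times. It encodes a secreted frizzled-related protein that binds Wnt ligands outside the cell, and spans chr3:83570243-83578238 on mm9, where the antisense transcript Gm16790 overlaps it and its reads may not be separable. Sfrp2 was at 993, 875 and 794 in untreated cells, 505, 434 and 467 at 12 h, and 192 and 217 at 72 h. The groups stepped down without overlap, from a mean of 887 ± 100.1 (SD, n = 3) to 469 ± 35.4 (n = 3) and 204 ± 17.4 (n = 2). The fall was -0.92 ± 0.12 at 12 h (adjusted p = 0.000271, below 2-fold), -2.11 ± 0.13 at 72 h (adjusted p = 3.61e-07) and -1.19 ± 0.13 between the times (adjusted p = 0.000157). The level at 72 h was thus 4.31-fold lower than in untreated cells.

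The 2 other abundant inhibitors did not pass any test. Dkk3, a divergent member of the Dickkopf family, was at 636, 488 and 676 in untreated cells, 583, 581 and 469 at 12 h, and 529 and 530 at 72 h. Dkk2 was at 207, 212 and 246 in untreated cells, 211, 177 and 267 at 12 h, and 219 and 232 at 72 h. The values of both genes overlapped between all groups. At 72 h the 95% interval of the change was -0.49 to 0.16 for Dkk3 and -0.34 to 0.39 for Dkk2. Wif1, at 6.88 to 19.8 reads, changed by 0.62 ± 0.33 at 12 h and 0.43 ± 0.36 at 72 h and passed no test. The remaining 6 inhibitors were below the level for testing, with highest values of 5.25 for Dkk1, 3.38 for Dkk4, 3.25 for Frzb, 14.3 for Sfrp1, 5.88 for Sfrp4 and 5 for Sfrp5.

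**Figure D4:**
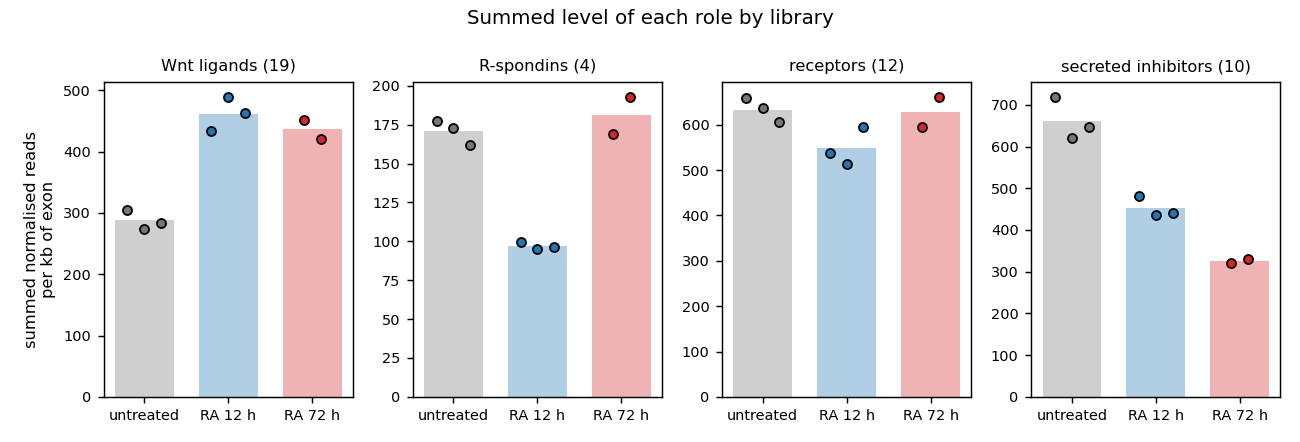
Summed normalised reads per kb of exon (vertical axes, starting at 0) of the 19 ligands, 4 R-spondins, 12 receptors and 10 secreted inhibitors; points are libraries and bars are group means. Ligand sums are 274 to 306 in untreated libraries and 420 to 488 with RA. Inhibitor sums are 621 to 718 in untreated libraries, 435 to 481 at 12 h and 320 to 331 at 72 h. Of the 4 tested inhibitors, only Sfrp2 passed limma's adjusted p.

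The summed inhibitor level per kb was 621 to 718 in untreated cells, 435 to 481 at 12 h and 320 to 331 at 72 h. The mean level of Sfrp2 alone was 412 normalised reads per kb in untreated cells. Not divided by length, the inhibitor sums were 1606 to 1866, 1227 to 1342 and 979 to 1004. Sfrp2 alone was at 794 to 993, 434 to 505 and 192 to 217 on that scale. Of the 4 tested inhibitors, only Sfrp2 passed limma's adjusted p. The summed receptor level per kb was 605 to 658, 513 to 595 and 595 to 660. These sums are descriptions and were not tested.

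Of the 3 tested target and nuclear genes, 0 passed limma's adjusted p in any comparison. For 1, Axin2 at 72 h against untreated cells, the unadjusted p was under 0.05. Over all genes tested, 16.3% at 12 h, 23.9% at 72 h and 18.9% between the times had an unadjusted p under 0.05. Between 1.5% and 6.08% passed the adjusted p in each direction and comparison, so counts from 3 genes do not stand apart from this background. Axin2, a feedback inhibitor induced by β-catenin and TCF in many tissues, was at 24.8, 31.4 and 19.3 in untreated cells, 26.8, 31.4 and 23.1 at 12 h, and 41.1 and 35.9 at 72 h. Both 72 h values were the highest of the 8. The change was 0.12 ± 0.24 at 12 h and 0.62 ± 0.27 at 72 h, with a 95% interval from 0.03 to 1.21 and an adjusted p of 0.188. Lef1, a DNA-binding partner of β-catenin, was at 23.0, 31.0 and 25.8 in untreated cells, 35.3, 29.1 and 19.9 at 12 h, and 18.4 and 16.8 at 72 h. Here both 72 h values were the lowest of the 8, and the change of -0.56 ± 0.30 did not pass (adjusted p = 0.276). Nkd1, another feedback inhibitor, was at 11, 5.63 and 18.8 in untreated cells, 13.8, 15.6 and 10.1 at 12 h, and 9.75 and 18.1 at 72 h. Its groups overlapped, and its 95% interval at 72 h ran from -0.70 to 1.31. Tcf7, the other nuclear factor, was below the level for testing, with a highest value of 11.3. When the whole table of 22200 genes was tested, none of the 20 members below that level passed the adjusted p in any comparison, and 1, Wnt16 at 72 h against untreated cells, had an unadjusted p under 0.05.

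Beyond the members, 75 further genes of the Wnt pathway were in the table and 63 were tested. At 12 h, 3 were called higher and 2 lower; at 72 h against untreated cells, 4 were higher and 4 lower; between the times, 1 was higher and 1 lower. The shares over all genes tested were 1.11% and 0.308%, 2.15% and 1.52%, and 0.765% and 0.734%. Their median changes were -0.098, -0.013 and 0.088, beside -0.016, -0.020 and -0.002 for all genes. None of the 16 tested genes of the cytoplasmic relay and destruction complex was called in any comparison, and by limma's adjusted p alone 1 was higher and 2 were lower at 72 h, beside 6.08% and 5.41% of all genes. By the unadjusted p at 0.05, 0 of the 16 passed at 12 h, 3 at 72 h and 3 between the times, beside 16.3%, 23.9% and 18.9% of all genes tested, so these counts are not above the background.

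Of the 3 R-spondin receptors Lgr4, Lgr5 and Lgr6, the first and the last were called higher and Lgr5 was not. They belong to a list of 11 tested receptors and coreceptors outside the members. Of that list, 1 was called higher at 12 h and 2 at 72 h, beside 1.11% and 2.15% of all genes tested. Lgr6 was at 12.3, 18.4 and 18.5 in untreated cells, 56, 78.8 and 57.3 at 12 h, and 65.3 and 55.0 at 72 h. It rose by 1.91 ± 0.23 at 12 h (adjusted p = 0.000205) and by 1.83 ± 0.26 at 72 h (adjusted p = 0.000418). Lgr4 was at 251, 215 and 213, then 367, 356 and 369, then 459 and 474, a rise of 1.04 ± 0.12 at 72 h (adjusted p = 8.4e-05). The RA values of both receptors lay above all untreated values. Lgr5 was at 19.9, 26.8 and 29.6, then 31, 19 and 17.8, then 26.1 and 18.4, with changes of -0.19 ± 0.29 at 12 h (adjusted p = 0.786) and -0.19 ± 0.32 at 72 h (adjusted p = 0.785).

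Of 6 other secreted regulators tested, 1 was called higher and 2 lower at 72 h, beside 2.15% and 1.52% of all genes. The counts were 0 and 1 at 12 h (1.11% and 0.308%) and 1 and 1 between the times (0.765% and 0.734%). Apcdd1 and Wisp1 were not called, with limma changes at 72 h of 0.86 ± 0.18 (adjusted p = 0.00763) and -0.01 ± 0.12 (adjusted p = 0.964). Wisp2 (also Ccn5), a matricellular protein, was called higher at 72 h by 1.51 ± 0.11 against untreated cells and by 1.56 ± 0.11 against 12 h (adjusted p = 1.09e-06 and 5.51e-06). Its values were 510 to 551 in untreated cells, 487 to 533 at 12 h and 1480 to 1529 at 72 h. Notum, an enzyme that removes the lipid of Wnt ligands, fell by 1.19 ± 0.20 at 12 h and by 1.01 ± 0.23 at 72 h, with values of 50.1 to 63.1 in untreated cells and 22.1 to 27.9 with RA (adjusted p = 0.00327 and 0.0106). Cthrc1, a cofactor of Wnt binding to Frizzled, fell by 1.31 ± 0.27 at 72 h (adjusted p = 0.00634). Igfbp4, which binds insulin-like growth factors and can hinder Wnt receptors, was at 344 to 382 in untreated cells, 679 to 715 at 12 h and 289 to 377 at 72 h, and fell by 1.06 ± 0.13 between the times (adjusted p = 0.00032). Apart from the secreted regulators, 1 of 9 tested planar cell polarity genes was called lower at 72 h, beside 1.52% of all genes. It was Daam2, a formin, which fell by 1.11 ± 0.19 (adjusted p = 0.00185).

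Of 9 tested genes often used as Wnt targets, Id2 and Sox2 were called higher and Bmp4 lower at 12 h. The shares of all genes tested were 1.11% and 0.308%. At 72 h 1 was called higher and 1 lower, beside 2.15% and 1.52%. By limma's adjusted p alone, 2 were higher and 2 lower at 12 h, and 3 higher and 2 lower at 72 h. By the unadjusted p at 0.05, 7 of the 9 passed at 12 h, 7 at 72 h and 2 between the times. Of all genes tested, 16.3%, 23.9% and 18.9% did. Id2, which encodes an inhibitor of bHLH factors, rose by 1.41 ± 0.14 at 12 h and by 1.24 ± 0.15 at 72 h (adjusted p = 2.33e-05 and 0.000125). The stem cell factor Sox2 rose by 1.10 ± 0.19 at 12 h and, below 2-fold, by 0.71 ± 0.21 at 72 h (adjusted p = 0.0441). The growth factor Bmp4 fell by 1.24 ± 0.11 at 12 h and by 1.02 ± 0.12 at 72 h (adjusted p = 9.22e-06 and 9.56e-05). Among the genes not called, Ccnd1 had a mean of 4881 in untreated cells and 6914 at 72 h. The means of Cd44 were 3011 and 1556, and those of Myc 524 and 300. These genes answer to several pathways besides Wnt.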

How the data were processed

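The authors deposited 1 table with a column for each of the 8 libraries and a line per Ensembl gene, in normalised reads. Per the study's methods, reads from fragmented RNA were aligned to mm9 and summed per gene; per the labels, short tags beside DpnII sites were sequenced. Every column holds the same set of values, so the authors had quantile normalised them, and count methods were not applied. The deposited group averages and log2 ratios were not used, and 1 line without a gene was left out. Values were tested as log2(value + 1) with limma 3.58.1 (R 4.3.3), with 1 model of the 3 groups, a variance trend, a minimum mean of 10 and Benjamini-Hochberg adjustment over 12673 genes; tests are two-sided. The code was tested on simulated data. Gene positions and exon lengths come from the mm9 annotation. Members called, members passing the adjusted p and the 3 highest members of each role are given in full. The members and gene lists were chosen with earlier results of these data known. The leukocyte marker list is not reported here.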

Additional observations from a re-analysis of the deposited data

Results flagged for a closer look

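Wnt11, Rspo3 and Sfrp2 changed differently at 72 h than at 12 h of RA, by the test of the difference itself (limma, RA 72 h against RA 12 h): Wnt11 by 2.95, Rspo3 by 1.77 and Sfrp2 by -1.19 on the log2 scale. All libraries of the 2 groups were on opposite sides in each. RA 72 h had 2 libraries, and time in culture changed with RA exposure. With 3 or fewer libraries a group, single values were not tested for outliers.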

How the results depend on the processing

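The calls of Wnt9a and Rspo2 at 12 h, of Wnt11, Rspo3, Wnt9a, Wnt5a and Sfrp2 at 72 h, and of Wnt11, Rspo3 and Sfrp2 between the times held with 10 added before the log, with no filter on low values, without a variance trend, with 2 groups only, with the replicate block, with the side of the within-group axis as a term and without any single library; no direction reversed. At 12 h, the members called higher were 2 without a variance trend, with the side as a term and with a gene-body background subtracted (Wnt1 added), and 4 with no fold-change minimum; those called lower were 3 with no minimum and 0 with a 3-fold minimum. At 72 h, those called higher were 4 with 10 added before the log (Fzd4 and Wnt1 lost) and 4 with a 3-fold minimum (Fzd4 and Wnt5a lost). They were 5 with no filter, with 2 groups only and with the replicate block (Fzd4 lost), and 8 with no fold-change minimum. Without single libraries they ranged from 4 to 6, and without untreated replicate 1 the 6 held Fzd7 in place of Fzd4. Those called lower at 72 h were 2 with no fold-change minimum and 3 with the gene-body background subtracted (Rspo2 and Lef1 added). Without single libraries these ranged from 1 to 2 (2 without untreated replicate 3 or RA 72 h replicate 2, Rspo2 added). Between the times, those called higher were 3 without a variance trend, with 2 groups only and with the side as a term (Fzd4 added). They were also 3, with Fzd4 added, with the gene-body background subtracted and without untreated replicate 2 or untreated replicate 3. With no fold-change minimum they were 3 (Wnt5a added). Those called lower between the times were 0 with a 3-fold minimum. Same-numbered libraries did not deviate together (correlations of -0.474 to 0.420), so the numbers were not taken as pairs; with the replicate block, the members called lower at 72 h were 2 (Rspo2 added) and the adjusted p of Fzd4 was 0.0923. The gene-body background, an estimate of reads from introns based on genes of at least 100 kb, was chosen after seeing the data; it would make up 51.1 to 92.0% of the Lef1 level over the groups, 78.2 to 85.7% of Nkd1 and 54.9 to 73.2% of Wif1, and 23.1%, 24.6% and 2.8% of Wnt11 in untreated cells, at 12 h and at 72 h. Depth is unknown, so the reliability of low members such as Wnt1 and Fzd4 cannot be judged from counts.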
